A study of Homo sapiens with 12 samples.

Results

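The genes described here encode enzymes that break down the extracellular matrix and the proteins that hold them in check: the matrix metalloproteinases MMP1, MMP2, MMP7 and MMP14, the tissue inhibitors of metalloproteinases TIMP1, TIMP2 and TIMP3, the plasminogen activators PLAU and PLAT, and PLAUR, the receptor that holds PLAU on the cell surface. These are 10 of the 19775 genes on the array, chosen by name, and each was read from the probe sets annotated to it alone. They had 23 probe sets between them, and each gene was represented by its brightest probe set on average, the others serving as a check. RNA came from HK-2 cells, an immortalised epithelial line from the human renal proximal tubule. The 4 groups were Aa at a high dose for 24 h, its vehicle (control) for 24 h, Aa at a high dose for 48 h and vehicle for 48 h, each with 3 arrays that the labels call biological replicates. All groups grew in medium with EGF, hydrocortisone, insulin, transferrin and selenite and were treated near confluence. The labels give neither what Aa stands for nor its dose in figures, and they do not say whether replicates were separate cultures, so p-values measure the spread between these samples, which may be technical.

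Matrix metalloproteinases are zinc-dependent enzymes that are made as inactive precursors and cleave collagens, laminins and other matrix proteins once activated. TIMPs bind the active enzymes and block them. Plasminogen activators turn plasminogen into plasmin, a protease that degrades fibrin and matrix and can activate metalloproteinase precursors, and PLAUR concentrates this reaction at the cell surface. In the kidney, PLAU is a known product of tubular epithelium, and MMP7 is known to be made by injured tubules.

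RefSeq promoter windows were found for 6 of the 10 genes (GRCh38.p14). The 250 bases before the start are shown for PLAUR (chr19:43670170-43670419, minus strand), TIMP1 (chrX:47582186-47582435, plus strand) and PLAU (chr10:73910882-73911131, plus strand, the second of its 2 windows), whose transcripts rose at 48 h, and for MMP7 (chr11:102530748-102530997, minus strand), whose transcript did not pass the test at that time. Capitals mark matches to TGANTCA, the core site of AP-1 factors, or to TGAGTAA, a variant of it, searched on both strands.
PLAUR: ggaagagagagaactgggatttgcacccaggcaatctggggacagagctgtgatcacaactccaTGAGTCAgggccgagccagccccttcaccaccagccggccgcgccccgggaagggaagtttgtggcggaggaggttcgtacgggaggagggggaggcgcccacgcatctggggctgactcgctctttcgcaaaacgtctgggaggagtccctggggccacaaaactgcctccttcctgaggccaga
TIMP1: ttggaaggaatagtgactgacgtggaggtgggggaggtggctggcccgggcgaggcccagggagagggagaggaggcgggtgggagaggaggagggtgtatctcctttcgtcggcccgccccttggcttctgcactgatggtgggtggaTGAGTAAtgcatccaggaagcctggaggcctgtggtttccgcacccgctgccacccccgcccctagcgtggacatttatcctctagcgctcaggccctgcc
PLAU: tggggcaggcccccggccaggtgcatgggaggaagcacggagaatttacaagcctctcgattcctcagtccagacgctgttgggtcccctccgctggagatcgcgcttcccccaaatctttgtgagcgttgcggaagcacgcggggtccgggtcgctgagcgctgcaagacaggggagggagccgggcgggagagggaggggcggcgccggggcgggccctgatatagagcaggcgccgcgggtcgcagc
MMP7: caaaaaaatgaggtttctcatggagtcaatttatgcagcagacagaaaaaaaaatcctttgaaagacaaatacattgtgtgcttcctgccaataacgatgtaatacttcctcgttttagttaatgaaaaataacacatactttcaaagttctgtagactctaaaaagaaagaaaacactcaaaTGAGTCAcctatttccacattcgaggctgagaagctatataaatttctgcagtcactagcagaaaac
TGANTCA stood at positions -186 to -180 of PLAUR and -67 to -61 of MMP7, counted back from the base before the start, and was found in 6.57% of all 35116 windows of this length. TGAGTAA stood at -101 to -95 of TIMP1 and was found in 2.21% of windows. The motif AGGAAG, which ETS factors can bind, lay at -87 to -82 of TIMP1 and -221 to -216 of PLAU, and on the other strand at -15 to -10 of PLAUR and at -169 to -164 and -145 to -140 of MMP7. It was thus in all 4 windows shown, and was found in 28.7% of all windows. These genes had 7 windows, and the motif was in none of those not shown (MMP14, TIMP3 and the first window of PLAU). The windows shown were picked from the 7, so their share is not to be set against 28.7%. The GC box GGGCGG was found in 42.6% of windows and 3 times in the PLAU window, which held neither AP-1 motif. These matches are descriptions of the letters, and both the PLAUR window, with a rise at 48 h, and the MMP7 window, without a call, held the same 7 letters TGAGTCA.

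All 10 genes were on the array, and 8 were tested, because values of 3 or more arrays exceeded log2 4. MMP2, which encodes gelatinase A, and TIMP3, an inhibitor that binds to the matrix, were near background on every array. The MMP2 probe set used lay between 2.47 and 2.54 and that of TIMP3 between 2.64 and 2.97 (log2), and the other 2 probe sets of MMP2 and the other 3 of TIMP3 were under log2 4 as well. No difference between groups was measurable for these 2 genes. In RefSeq MMP1 and MMP7 lie on chromosome 11, MMP2 on 16, MMP14 on 14, TIMP1 on X, TIMP2 on 17, TIMP3 on 22, PLAU on 10, PLAUR on 19 and PLAT on 8.

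**Figure D1:**
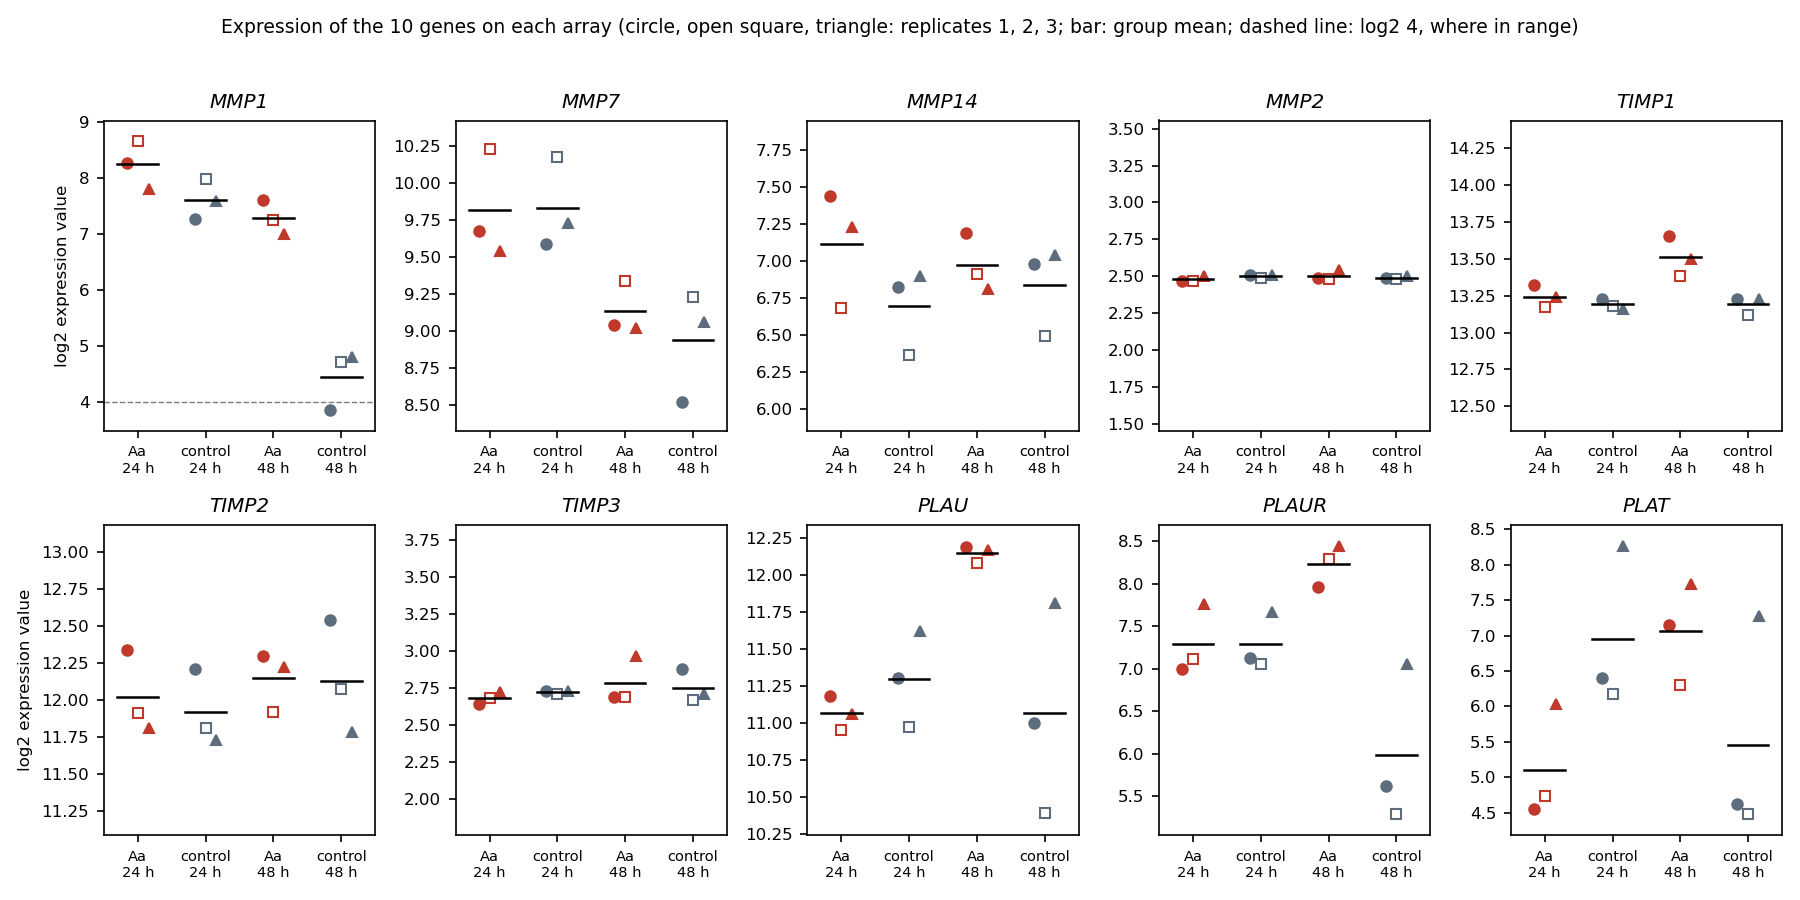
Log2 expression values of the 10 genes on each of the 12 arrays, with Aa in red left of control in grey at each time, replicates 1, 2 and 3 as circle, open square and triangle, and the group mean as a bar. MMP1 drops in control cells at 48 h to between 3.85 and 4.79, PLAU and PLAUR are highest in Aa-treated cells at 48 h, and replicate 3 is the highest of its group for PLAT in all 4 groups.

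Correlations between arrays within a group, across all genes, lay between 0.9942 and 0.9966. Aa arrays had larger differences between 3' and 5' control probe sets of ACTB and GAPDH, a measure of RNA quality, than control arrays at 48 h (0.431 to 0.68 against 0.235 to 0.418, log2), and the ranges overlapped at 24 h (0.264 to 0.547 against 0.246 to 0.355). The part of RNA quality in the changes below was not tested. ACTB had log2 changes of -0.09 at 24 h and -0.29 at 48 h, and GAPDH of 0.03 and -0.08, and none of these passed. Of 20 markers of proximal tubule on the array 11 were under log2 4 on all arrays, among them LRP2, CUBN, AQP1, ANPEP and MME, while DPP4, SLC3A1, SLC4A4, PAX8, CDH6, KRT8, KRT18 and CDH1 were tested. The summed linear level of the 20 was 20530 to 22110 in Aa-treated cells and 29950 to 34260 in control cells at 24 h, and 19520 to 23570 in Aa-treated cells and 28360 to 30530 in control cells at 48 h. Among the 8 tested, 4 fell at 24 h, and 5 fell and 1 rose at 48 h, with the amino acid transporter subunit SLC3A1 lower by 3.89-fold and 11.3-fold and the cadherin CDH6 by 2.92-fold and 6.74-fold. KRT8 went the other way at 48 h, with a log2 change of 0.71 and groups that did not overlap. DPP4 had a change of 0.29 at 48 h, and its groups overlapped. Of all tested genes 26.3% rose and 22.8% fell at 24 h, and 30.6% rose and 33.9% fell at 48 h. Fibroblasts are a common source of metalloproteinases and TIMPs. Of 10 fibroblast markers 7 were under log2 4 on all arrays, including PDGFRA, PDGFRB, COL3A1 and THY1, and the summed linear level of all 10 was 3714 to 5251 in Aa-treated cells and 4942 to 6991 in control cells at 24 h, and 4192 to 4870 in Aa-treated cells and 4674 to 5581 in control cells at 48 h. The other 3, the matrix genes DCN, LUM and COL1A1, were over log2 4 on all 12 arrays, with ranges of 11.56 to 12.45, 8.91 to 9.98 and 7.27 to 8.56. COL1A1 fell by 0.73 at 24 h (adjusted p = 0.00947), DCN and LUM had changes of -0.41 each that did not pass (adjusted p = 0.0726 and 0.158), and none of the 3 passed at 48 h. All 7 leukocyte markers on the array and 5 of 8 endothelial markers, among them PECAM1 and CDH5, were under log2 4 on all arrays, and the summed linear levels stayed between 86.4 and 111.3 for the endothelial list and between 37.1 and 46.6 for the leukocyte list over all 12 arrays. The part of these lists in the changes below was not tested. Fewer cells of a type and less RNA per cell cannot be told apart in these bulk samples.

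The first comparison asked how these transcripts differed between Aa-treated and control cells at 24 h. None of the 8 tested genes passed the test in limma (Benjamini-Hochberg adjusted p under 0.05 over all 11184 genes tested), and 1, PLAT, passed at an unadjusted p under 0.05. In the same comparison 26.3% of all tested genes rose and 22.8% fell, so the count of 0 in 8 lay below the background of calls. The median log2 change was 0.03 over the 8 genes and 0.02 over all genes tested. With the replicate number as a block, PLAT fell and MMP14 rose, making 2 calls among the 8 genes, while the block called 32.5% of all tested genes higher and 29.1% lower. Scaling to hybridisation controls moved the median of all genes to -0.265 and the share of calls that were rises to 29.9%, in place of 53.6%.

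PLAT, which encodes tissue-type plasminogen activator, was lower in Aa-treated cells at 24 h in each of the 3 replicates. Its values were 4.56, 4.73 and 6.03 (log2) in Aa-treated cells, against 6.40, 6.17 and 8.27 in control cells. The groups did not overlap, as was so for 59.8% of all tested genes, and replicate 3 was the highest in both. The log2 change was -1.84 (SE 0.787, adjusted p = 0.0747), equal to a 3.59-fold difference, and with the replicate block its SE was 0.334 and it passed (adjusted p = 0.00126). Differences between arrays of the same number were -1.85, -1.44 and -2.25. Without the block the change ranged from -2.30 to -1.18 over the 12 fits that left out a single array, and it passed in 1 of them, without control replicate 3 of 48 h (adjusted p = 0.025). It was -1.18 without control replicate 3 of 24 h (adjusted p = 0.261). The change passed with all 4 arrays of replicate 3 left out (-1.64, adjusted p = 0.00424), as it did with hybridisation-control scaling (-2.13, adjusted p = 0.0312).

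Among the metalloproteinases, MMP1, the collagenase that cleaves fibrillar collagen, was higher in all 3 replicates at 24 h, by 1.00, 0.67 and 0.22 (log2). Its values were 8.26, 8.65 and 7.80 in Aa-treated cells, against 7.27, 7.97 and 7.58 in control cells. These groups overlapped, and the change of 0.63 did not pass (SE 0.297, adjusted p = 0.103), although without Aa replicate 3 of 24 h it was 0.85 and passed (adjusted p = 0.0498). MMP14, the membrane-bound metalloproteinase that activates MMP2 precursor, measured 7.44, 6.68 and 7.23 in Aa-treated cells, against 6.82, 6.36 and 6.90 in control cells. Replicate 2 was the lowest in both groups and each Aa array lay over the control array of its number. The change of 0.42 (SE 0.226, adjusted p = 0.148) passed with the replicate block (adjusted p = 0.0227) and without Aa replicate 2 of 24 h (0.64, adjusted p = 0.034). Of the other 3 MMP14 probe sets, the brightest had the opposite sign (-0.065) and the rest gave 0.31 and 0.095, none of which passed. MMP7, a small metalloproteinase of epithelia, measured 9.68, 10.23 and 9.54 in Aa-treated cells, against 9.59, 10.18 and 9.73 in control cells. Its change of -0.01 had a 95% interval of -0.53 to 0.50, and its sign turned with equal array medians.

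The inhibitors and the PLAU system were nearly level between the groups at 24 h. TIMP1, which binds most secreted metalloproteinases, averaged 13.24 ± 0.08 in Aa-treated cells and 13.19 ± 0.04 in control cells (SD, n = 3 each), and its interval of difference ran from -0.16 to 0.26. TIMP2, which inhibits metalloproteinases and also takes part with MMP14 in activating MMP2, averaged 12.02 ± 0.28 in Aa-treated cells and 11.92 ± 0.26 in control cells, with an interval of -0.38 to 0.58. PLAU, the urokinase-type plasminogen activator, averaged 11.07 ± 0.11 in Aa-treated cells and 11.30 ± 0.33 in control cells, a change of -0.23 (95% interval -0.86 to 0.40). PLAUR averaged 7.29 ± 0.41 in Aa-treated cells and 7.29 ± 0.34 in control cells, and its interval of difference ran from -0.87 to 0.88.

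At 48 h, transcripts of MMP1, TIMP1, PLAU and PLAUR were higher in Aa-treated cells and none of the 8 tested genes fell. PLAT, MMP7, MMP14 and TIMP2 did not pass in the model of 4 group means. Across all tested genes 30.6% rose and 33.9% fell in this comparison, and the 4 rises in 8 genes are to be read against that share. With the replicate number as a block PLAT passed too, making 5 rises in the 8 genes. The block called 35.3% of all tested genes higher and 38% lower. The median log2 change was 0.70 over the 8 genes and -0.03 over all genes. With scaling to hybridisation controls the median of all genes moved to -0.468, the share of calls that were rises to 23.2% in place of 47.5%, and MMP1 and PLAUR were the 2 of the 8 that passed, where 16% of all genes tested rose and 53% fell. In 4 of the 8 genes the groups did not overlap, against 69.1% of all tested genes.

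MMP1 had the largest change of the 8 genes at 48 h. It measured 7.60, 7.24 and 6.99 in Aa-treated cells, against 3.85, 4.70 and 4.79 in control cells, and the control array of replicate 1 lay under log2 4. MMP1 was at least 6.87-fold higher, with a fitted log2 change of 2.83 (SE 0.297, adjusted p = 1.1e-05). Differences between arrays of the same number were 3.76, 2.54 and 2.20. MMP1 passed in all 12 fits that left out a single array (2.53 to 3.00) and under every other setting (2.39 to 3.15). MMP1 had a single probe set, so no second measurement of it was at hand.

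PLAUR, the urokinase receptor, rose 4.73-fold at 48 h. It measured 7.96, 8.29 and 8.45 in Aa-treated cells, against 5.62, 5.29 and 7.06 in control cells. The Aa arrays lay close together and over every control array, while the control array of replicate 3 stood over the other 2. The log2 change was 2.24 (SE 0.396, adjusted p = 0.000487), and the differences by replicate were 2.34, 3.00 and 1.39. A second probe set gave 2.15 (adjusted p = 0.00152), while the dimmest, with values of 4.51 to 6.23 over all arrays, gave 0.21 (adjusted p = 0.56).

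PLAU rose 2.11-fold at 48 h. It measured 12.19, 12.08 and 12.17 in Aa-treated cells, against 11.00, 10.39 and 11.81 in control cells. The 3 Aa arrays lay close together and over all control arrays, which spread more widely. The log2 change was 1.08 (SE 0.287, adjusted p = 0.00674), the differences by replicate were 1.18, 1.69 and 0.36, and the second probe set of PLAU gave 1.04 (adjusted p = 0.0244). With hybridisation-control scaling the change was 0.64 and did not pass (adjusted p = 0.0572).

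PLAT, which had been lower with Aa at 24 h, was higher at 48 h in all 3 replicates. It measured 7.15, 6.30 and 7.73 in Aa-treated cells, against 4.63, 4.48 and 7.28 in control cells. The control array of replicate 3 lay within the Aa range and the other 2 control arrays lay under it, and the differences by replicate were 2.52, 1.82 and 0.44. The log2 change of 1.59 (SE 0.787) did not pass (adjusted p = 0.0977), and it passed with the replicate block (SE 0.334, adjusted p = 0.0021). Over the 12 fits that left out a single array it ranged from 1.10, without control replicate 2 of 48 h (adjusted p = 0.292), to 2.50, without control replicate 3 of 48 h (adjusted p = 0.00769), the only one of them that passed. With all arrays of replicate 3 left out it was 2.17 (adjusted p = 0.000867). PLAT had a single probe set.

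TIMP1 rose by a small amount at 48 h, with values of 13.65, 13.38 and 13.50 in Aa-treated cells, against 13.23, 13.12 and 13.23 in control cells. The groups did not overlap, and the change was 0.32 (SE 0.0944, adjusted p = 0.0116), or 1.25-fold. Its sign turned with hybridisation-control scaling, to -0.12 against a median of -0.468 for all genes, and it did not pass with the arrays of replicate 3 left out (0.34, adjusted p = 0.0649). TIMP2 measured 12.30, 11.92 and 12.22 in Aa-treated cells, against 12.54, 12.07 and 11.78 in control cells, with a 95% interval of the change from -0.46 to 0.49. Its 3 probe sets went different ways, and the dimmest gave -0.45 (adjusted p = 0.0831). MMP7 measured 9.04, 9.34 and 9.02 in Aa-treated cells, against 8.52, 9.23 and 9.06 in control cells (95% interval of the change -0.32 to 0.71). MMP14 averaged 6.97 ± 0.19 in Aa-treated cells and 6.84 ± 0.30 in control cells (SD, n = 3 each), with an interval of -0.36 to 0.63.

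**Figure D2:**
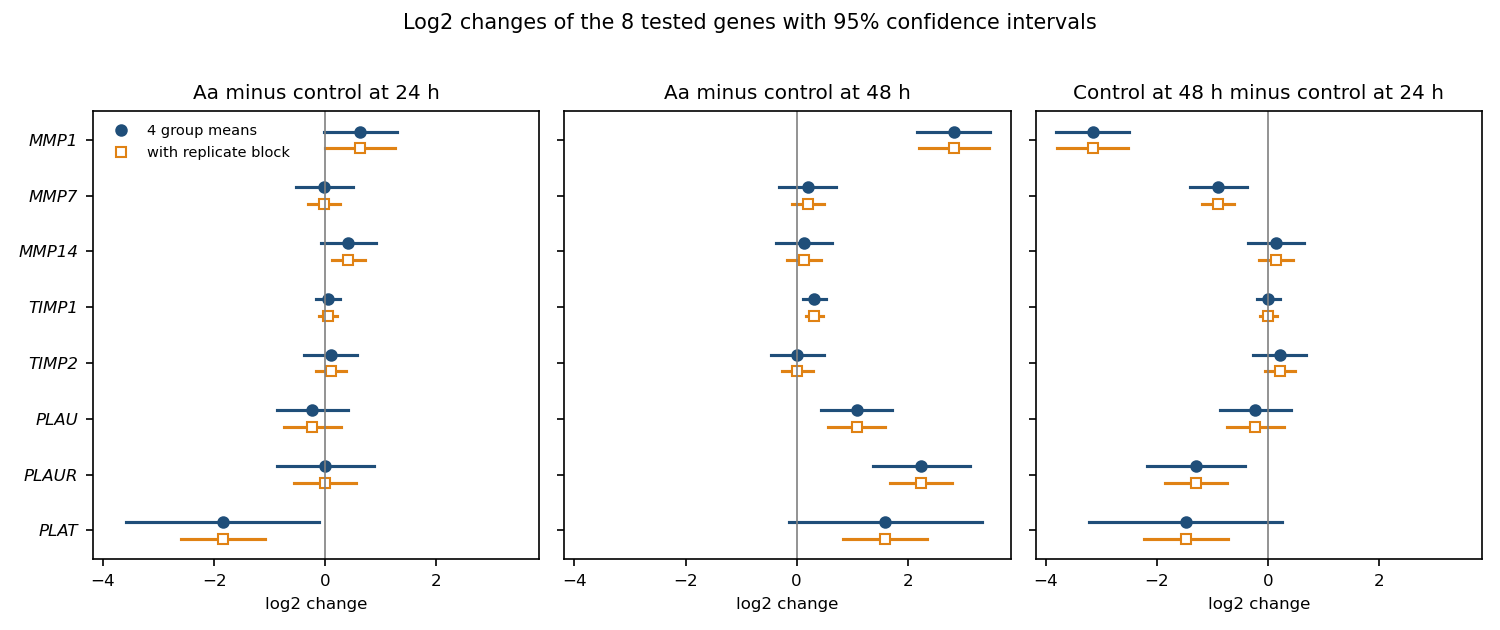
Log2 changes (x axis) of the 8 tested genes with 95% confidence intervals, from the model of 4 group means (filled circles) and with the replicate number as a block (open squares). Intervals for PLAT are the widest without the block, and at 24 h and 48 h they lie clear of 0 with it, on opposite sides.

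Control cells were also compared between the times. In control cells MMP1 fell by 3.16 at 48 h relative to 24 h (SE 0.297, adjusted p = 0.00227), the only member called in this comparison, in which 0.277% of all tested genes rose and 0.358% fell. Its control values were 3.85, 4.70 and 4.79 at 48 h, against 7.27, 7.97 and 7.58 at 24 h, which is at least 8.63-fold lower at 48 h. In Aa-treated cells MMP1 had differences of -0.66, -1.41 and -0.82 between 48 h and 24 h, which were not tested, and its mean of 7.28 at 48 h with Aa lay below those of both groups at 24 h (8.24 with Aa and 7.61 in control cells).

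PLAUR, PLAT and MMP7 had lower values in control cells at 48 h in all 3 replicates and did not pass without the block. PLAUR had a change of -1.30 (adjusted p = 0.137, and 0.0131 with the replicate block), PLAT of -1.48 (adjusted p = 0.365, and 0.0228 with the block) and MMP7 of -0.90 (adjusted p = 0.0984, and 0.00559 with the block). The block thus gave 4 falls among the 8 genes, and over all tested genes it called 6.65% higher and 8.27% lower. For PLAT the change ranged from -2.39 to -0.82 over the fits without a single array, none of which passed. PLAUR also passed without the control array of replicate 3 of 48 h (-1.83, adjusted p = 0.0106). In Aa-treated cells MMP7 had differences of -0.64, -0.89 and -0.53 between 48 h and 24 h. The control groups of the 2 times did not overlap for MMP1 and MMP7, as was so for 22.6% of all tested genes. PLAU, TIMP1, TIMP2 and MMP14 had control changes of -0.23, 0.00, 0.21 and 0.14 and none passed. Hybridisation-control scaling moved the median of all genes to -0.323 here and the share of calls that were rises to 1.64%, in place of 43.7%.

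Among Aa-treated cells the plasminogen genes had higher values at 48 h than at 24 h in every replicate, a comparison given without a test. PLAU was higher by 1.01, 1.13 and 1.11, PLAUR by 0.96, 1.18 and 0.69, and PLAT by 2.60, 1.57 and 1.70 (log2). In control cells the same differences were -0.30, -0.57 and 0.19 for PLAU, -1.51, -1.77 and -0.61 for PLAUR, and -1.77, -1.69 and -0.99 for PLAT. The comparisons at 48 h and between control times share the control arrays of 48 h, so they are not separate evidence.

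The difference between the Aa effects at 48 h and at 24 h passed for MMP1 (2.20, SE 0.42, adjusted p = 0.00728), PLAUR (2.24, SE 0.561, adjusted p = 0.0211) and PLAU (1.31, SE 0.406, adjusted p = 0.0455), all upward, while 6.8% of all tested genes were called upward and 12.7% downward. PLAT had the largest value, 3.44 (SE 1.11), and missed the threshold (adjusted p = 0.0524). It passed in 2 of the 12 fits that left out a single array (2.77 to 4.34, adjusted p up to 0.118) and with the replicate block (SE 0.472, adjusted p = 0.00123). The PLAU call was lost in 10 of the 12 fits that left out a single array (adjusted p up to 0.105) and with its second probe set (1.38, adjusted p = 0.0771), and that of PLAUR without Aa replicate 2 of 24 h, Aa replicate 3 of 48 h, control replicate 3 of 24 h or control replicate 1 of 48 h (2.15, 2.14, 2.05 and 2.06, adjusted p from 0.0502 to 0.0545). With no expression filter both were lost (adjusted p = 0.0544 for PLAUR and 0.102 for PLAU), and the dimmest PLAUR probe set gave 0.50 (adjusted p = 0.422). With hybridisation-control scaling the median of all genes was -0.224 and 17.7% of calls were upward, in place of 34.9%.

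**Figure D3:**
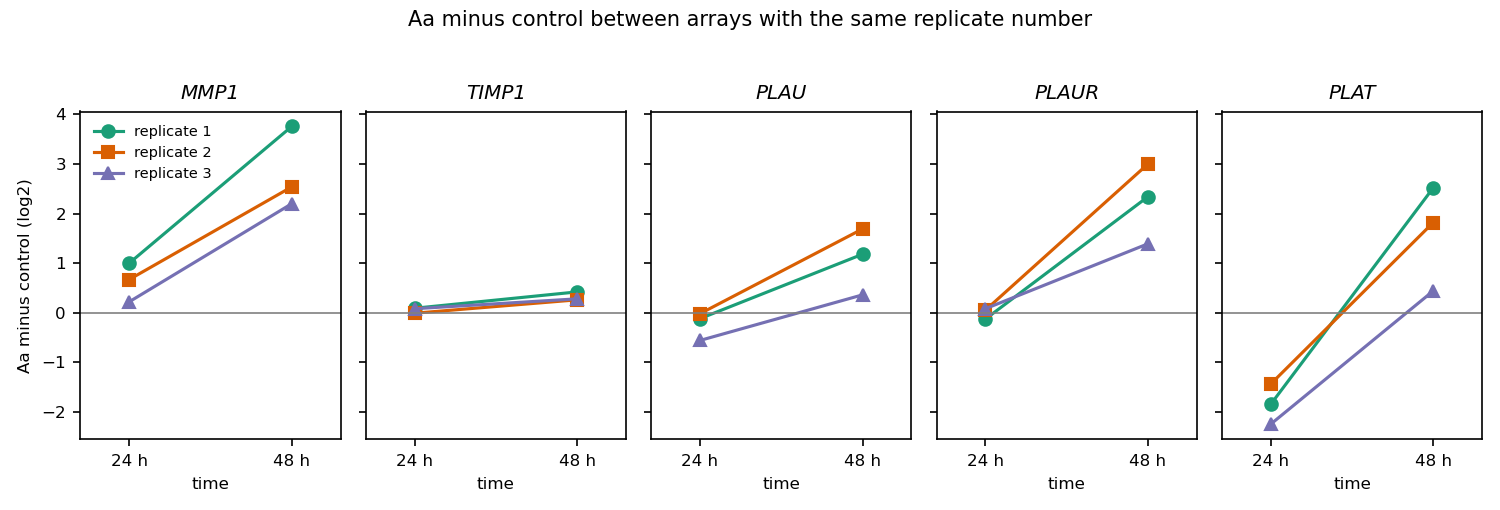
Aa minus control between arrays of the same replicate number (log2, y axis) at 24 h and 48 h for MMP1, TIMP1, PLAU, PLAUR and PLAT. All 15 lines run upward, in genes drawn because they were called at 48 h or, for PLAT, turned between the times. MMP7, MMP14 and TIMP2 are not drawn, and their fitted differences between times were 0.21, -0.29 and -0.09. PLAT crosses 0 in each replicate, and replicate 3 has the smallest difference at 48 h for MMP1, PLAU, PLAUR and PLAT.

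Other genes of the same systems were read from lists. Of 18 other metalloproteinases on the array 7 were tested. MMP16, a membrane-bound metalloproteinase, was at least 1.18-fold lower at 24 h and at least 1.85-fold lower at 48 h. It was under log2 4 on all 6 Aa arrays and measured 4.90, 4.55 and 3.26 in control cells at 24 h and 5.14, 4.88 and 4.65 at 48 h. It was tested only because 5 control arrays exceeded log2 4, so it had to differ, and its calls support nothing. With values floored at log2 4 its 24 h call was lost (adjusted p = 0.0609). MMP15, of the same membrane type, fell by 0.46 at 48 h (adjusted p = 0.0408), and this call was lost with quantile normalisation (adjusted p = 0.0789) and when any of 5 arrays was left out. The other metalloproteinases tested did not pass at either time in the model of 4 group means. The list median was -0.05 at 24 h and -0.32 at 48 h. The block gave 2 calls at 24 h, both lower, where it called 29.1% of all tested genes lower. With hybridisation-control scaling 6 of the 7 passed at 48 h, all lower, where 53% of all genes tested fell. At 24 h that scaling gave 2 calls, both lower, where 5567 of all 11294 genes were called.

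Of 7 other inhibitors tested, 1 fell at 24 h and 1 rose at 48 h. TFPI2, a Kunitz-type inhibitor of plasmin and related proteases, fell by 0.52 at 24 h (SE 0.14, adjusted p = 0.00985) and was level at 48 h (12.50 in both groups). Its means at 24 h were 12.51 in Aa-treated cells and 13.03 in control cells. SERPINE2, the serpin protease nexin 1 that inhibits urokinase, rose 2.06-fold at 48 h (log2 change 1.04, SE 0.149, adjusted p = 0.00011). It measured 12.49, 12.37 and 12.14 in Aa-treated cells, against 11.03, 11.26 and 11.59 in control cells, and the groups did not overlap. The means of SERPINE2 were 12.29 at 24 h and 12.33 at 48 h with Aa, and 11.97 and 11.29 in control cells. Neither gene passed between the control times without the block. The list medians were 0.05 and 0.00. The block gave 2 calls at each time, while it called 32.5% of all tested genes higher and 29.1% lower at 24 h. At 48 h it called 35.3% of all tested genes higher and 38% lower. Without the block 26.3% of all tested genes rose and 22.8% fell at 24 h, and 30.6% rose and 33.9% fell at 48 h.

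In a list of plasminogen, its receptors, clearance receptors and related genes, 2 of 8 tested genes were higher and 2 lower at 24 h. At 48 h 2 were higher and 3 lower. The rises at both times were those of MRC2 and KLKB1. PLGRKT, a plasminogen receptor of the plasma membrane, fell by 1.16 (SE 0.11) at 24 h and by 1.36 at 48 h (adjusted p = 1.7e-06). VLDLR, an endocytic receptor that clears protease and inhibitor complexes, fell by 0.68 at 24 h and by 1.84 at 48 h (adjusted p = 1.01e-05). MRC2, a collagen uptake receptor that associates with PLAUR, rose by 0.82 and 0.71, and its 24 h call was lost with hybridisation-control scaling (0.53, adjusted p = 0.133) and when any of 3 arrays was left out, and its 48 h call when any of 4 was. KLKB1, which encodes plasma prekallikrein and not a receptor, was near background in control cells. It was at least 1.85-fold and 2.34-fold higher with Aa at 24 h and 48 h. Only its 6 Aa arrays brought it into the test, so its calls support nothing. The list medians were -0.09 and -0.20. Of all tested genes 26.3% rose and 22.8% fell at 24 h, and 30.6% rose and 33.9% fell at 48 h.

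Of 8 tested activators and partners of metalloproteinases 0 passed at 24 h in limma (1 at an unadjusted p under 0.05, and 2 with the block), and at 48 h 4 rose and 1 fell. CD44, a hyaluronan receptor to which MMP7 and MMP14 can bind, rose 2.22-fold (SE 0.237, adjusted p = 0.0014). CTSL, the lysosomal protease cathepsin L, rose 1.99-fold (SE 0.0945, adjusted p = 5.34e-06). FURIN, the convertase that activates MMP14 precursor, rose 1.67-fold (adjusted p = 0.0102), with differences of 1.49, 0.54 and 0.18 by replicate, and did not pass with hybridisation-control scaling (0.29, adjusted p = 0.262). The list median was 0.09 at 24 h and 0.40 at 48 h. ST14, at least 1.16-fold higher at 48 h, exceeded log2 4 on 4 arrays, all with Aa. Only those arrays brought it into the test, so its place among the rises supports nothing. Of all tested genes 26.3% rose and 22.8% fell at 24 h, and 30.6% rose and 33.9% fell at 48 h. The block called 32.5% of them higher and 29.1% lower at 24 h.

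Among 10 tested ADAM and ADAMTS proteases, relatives of the metalloproteinases that shed surface proteins or cleave proteoglycans, 3 rose and 2 fell at 24 h, and 2 rose and 4 fell at 48 h. With the block 4 rose and 4 fell at 24 h, where the block called 32.5% of all tested genes higher and 29.1% lower. Without the block 26.3% of all tested genes rose and 22.8% fell at 24 h, and 30.6% rose and 33.9% fell at 48 h. ADAM9 rose 3.90-fold at 24 h (adjusted p = 2.38e-06) and 3.70-fold at 48 h, and ADAM8 rose 3.64-fold and 2.66-fold. ADAMTS9 was 9.09-fold lower at 48 h (log2 change -3.18, adjusted p = 0.00116), and without Aa replicate 3 of 48 h, the lowest array, its change was -2.34 and passed. ADAMTS5, an aggrecan-cleaving enzyme, was at least 5.03-fold lower, with 2 of its 3 Aa arrays under log2 4. The fitted change of ADAMTS5, -2.93, was -3.78 without control replicate 3 of 48 h and -2.32 without control replicate 2 of 48 h. ADAMTS12 was at least 2.52-fold and 3.10-fold lower at 24 h and 48 h, and only its 6 control arrays brought it into the test. ADAMTS5 likewise met the filter only through its control arrays. The calls of these 2 genes among the falls therefore support nothing.

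AP-1 and ETS factors, known regulators of metalloproteinase and PLAU transcription, were all 12 tested, and 5 rose and 2 fell at 24 h while 7 rose and 1 fell at 48 h. Of all tested genes 26.3% rose and 22.8% fell at 24 h, and 30.6% rose and 33.9% fell at 48 h. The list median was 0.37 at 24 h and 1.85 at 48 h. ATF3, a stress-induced partner of JUN proteins, measured 10.48, 10.30 and 10.14 in Aa-treated cells at 24 h, against 4.71, 4.76 and 5.55 in control cells, a 39.4-fold rise (adjusted p = 5.08e-07). At 48 h ATF3 was 117-fold higher (adjusted p = 4.76e-08). JUN rose 3.13-fold at 24 h (adjusted p = 4.34e-05). FOS measured 8.91, 8.30 and 9.19 in Aa-treated cells at 48 h, against 4.59, 4.50 and 4.72 in control cells, and rose 18.3-fold (adjusted p = 1.2e-07), whereas its groups overlapped at 24 h. FOSB was over log2 4 on the 3 Aa arrays of 48 h alone, which made it at least 11.1-fold higher there. It entered the test only through those arrays, so its place among the 7 rises supports nothing. The difference between the Aa effects at 48 h and 24 h passed for FOS (3.97) and FOSL1 (3.22, adjusted p = 0.0227), and for FOSL1 it was lost when any of 3 arrays was left out. FOSL1 had a control mean of 5.09 at 48 h, against 6.89 at 24 h. No member's change was tested against these factors.

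**Figure D4:**
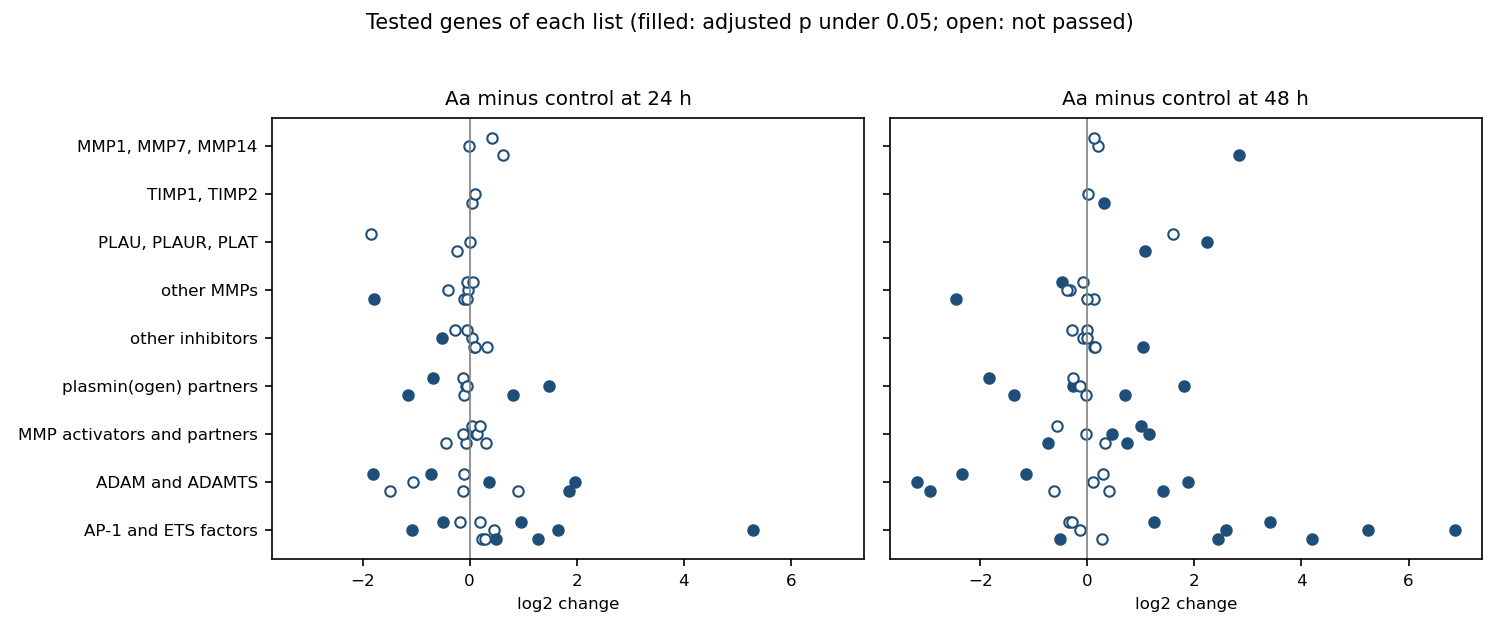
Log2 change (x axis) of each tested gene of 9 lists at 24 h and 48 h, filled where adjusted p was under 0.05. PLAU, PLAUR and PLAT move to the right at 48 h, and the activators and partners list has 4 filled points right of 0 and 1 left of it. Only Aa arrays brought ST14 of that list into the test.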

How the data were processed

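Expression was measured on 12 Affymetrix arrays, 3 in each of 4 groups. The deposited log2 values were made by the authors with GCRMA, per the submitters' processing notes, and neither its version nor which arrays were normalised jointly is stated there. Values ran from 0.859 to 16.19, as base 2 logarithms do on this scale, with array medians between 2.91 and 3.023, and a shift of most transcripts at once is not visible in such values. Probe sets naming 1 gene (41091 of 54675) were used, and symbols were checked against RefSeq by Entrez number (41037 matched). Genes entered the test with a value over log2 4 on at least 3 arrays (11184 of 19775 genes). Where arrays of the dimmer group lay under log2 4, they entered at log2 4 and the fold is given as a lower bound.

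A linear model of 4 group means over all 12 arrays was fitted with lmFit and eBayes (limma 3.58.1, R 4.3.3) after being tested on simulated data. The simulated noise was independent between arrays, so that test could not check the model under the pairing of arrays given below. The median standard error of a log2 change was 0.1605 within a time, and the number of arrays limits this precision. Deviations from the group means correlated at 0.279 to 0.577 in all 18 pairs of arrays with the same replicate number, so the numbers paired the arrays. In the 36 others they correlated at -0.371 to -0.0286. Deviations sum to 0 within a group, so these negative values go with the positive ones and are no separate evidence. Fits with the replicate number as a block are given where they change a call. The members, the lists and the rules for naming genes were chosen with earlier results of these data known. The text names the 10 members, up to 3 called genes per other list and contrast with the largest changes, ACTB and GAPDH, and for 3 members the 3 genes of most similar pattern. ST14 and single markers of cell types are named besides these. Alternatives were the block, 3 other scalings, 2 other filters, a floor, the mean over probe sets, another prior, single probe sets and leaving out arrays. Leaving out all arrays of replicate 3 together, and the alternatives for the other lists, were chosen after seeing the data.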

Additional observations from a re-analysis of the deposited data

Results flagged for a closer look

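The Aa effect differed between 48 h and 24 h, by the interaction term of the limma fit, for 3 genes. The difference in log2 change was 2.20 for MMP1 (adjusted p = 0.00728), 2.24 for PLAUR (adjusted p = 0.0211) and 1.31 for PLAU (adjusted p = 0.0455). In each of these genes the difference between Aa and control was larger at 48 h than at 24 h in 3 of 3 replicates. Over the 12 fits that left out a single array, the call held in 12 for MMP1, 8 for PLAUR and 2 for PLAU. With no expression filter PLAUR and PLAU did not pass (adjusted p = 0.0544 and 0.102). With groups of 3 no single array could be tested as standing apart.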

How the results depend on the processing

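Of the settings tried on the single genes' changes, other than leaving out single arrays, 292 kept direction and call, 32 turned the sign, 18 brought a call and 10 lost one. The replicate block gave 2 called members at 24 h, 5 at 48 h and 4 in the control time comparison. Of all 11184 genes it called 6883 at 24 h (5492 without it) and 8193 at 48 h (7210 without it). It called 4314 for the difference between times (2179 without it) and 1669 in the control time comparison (71 without it). Hybridisation-control scaling gave 1, 2 and 3 called members at 24 h, at 48 h and in the control time comparison. Of all 11294 genes tested with it, 5567, 7787 and 1953 were called in these comparisons. No expression filter left 1 member called for the difference between times, and 1712 of all 19775 genes. In the control time comparison a floor at log2 4 gave 141 of all genes and the trended robust prior 146. Without the 4 arrays of replicate 3, 1 member was called at 24 h and 2 in the control time comparison. Of all 11072 genes tested there, 4701 were called at 24 h. In the difference between times and the control time comparison 1391 and 123 were called. Leaving out single arrays gave 0 to 1 members and 4809 to 5555 of all genes at 24 h. For the difference between times it gave 1 to 4 members and 1241 to 2595 of all genes. In the control time comparison it gave 1 to 2 members and 3 to 540 of all genes. The 3 came without control replicate 1 of 48 h and the 540 without control replicate 3 of 48 h. With hybridisation-control scaling the signs turned at 24 h for TIMP1 (-0.23), TIMP2 (-0.18) and PLAUR (-0.28), at 48 h for MMP7 (-0.24), MMP14 (-0.31), TIMP1 (-0.12) and TIMP2 (-0.42), and in control cells over time for MMP14 (-0.17), TIMP1 (-0.31) and TIMP2 (-0.10). Equal array medians turned MMP7 at 24 h (0.022) and TIMP2 at 48 h (-0.0073), and quantile normalisation turned PLAUR at 24 h (-0.043) and TIMP1 over time (-0.011). The mean over probe sets turned TIMP2 at 24 h (-0.067) and 48 h (-0.11), PLAUR at 24 h (-0.057) and MMP14 over time (-0.11). Single probe sets turned MMP14 at 24 h (-0.065), in the difference between times (0.30 and 0.0043) and over time (-0.37, -0.12 and -0.11), TIMP2 at 24 h (-0.42), at 48 h (-0.45) and over time (-0.14), and PLAUR at 24 h (-0.29). Without replicate 3 the signs turned for MMP7 (0.074) and PLAUR (-0.040) at 24 h, TIMP2 at 48 h (-0.20) and TIMP1 over time (-0.029). Leaving out single arrays gave ranges across 0 for MMP7 at 24 h (-0.22 to 0.16) and 48 h (-0.0078 to 0.34), MMP14 at 48 h (-0.040 to 0.23, and 0.31 without replicate 3) and over time (-0.026 to 0.32), TIMP1 over time (-0.016 to 0.039), TIMP2 at 24 h (-0.060 to 0.25), at 48 h (-0.16 to 0.22) and in the difference between times (-0.26 to 0.12), PLAU over time (-0.60 to 0.11) and PLAUR at 24 h (-0.23 to 0.19). The causes were not tested, and values under log2 4 are too close to background to show a change.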

Other observations

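MMP1 and MMP7 lie in a run of metalloproteinase genes on chromosome 11 in the RefSeq gene table (GRCh38.p14). Between and beside them lie MMP20, MMP27, MMP8, MMP10, MMP3, MMP12 and MMP13, all of which were on the array and under log2 4 on all 12 arrays, the highest value being 3.07 for MMP8. In these cells MMP1 and MMP7 were thus the only genes of this run over log2 4.

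For the 3 members with the widest range of group means, the genes with the most similar values over the 12 arrays were found by Pearson correlation. These 12 arrays fall into 4 groups and are no independent series, so the coefficients only describe likeness. For MMP1 they were FECH (r = 0.945), which encodes the last enzyme of heme synthesis, INHBA (r = 0.935), which encodes a subunit of activins, and TXNIP (r = 0.921), a regulator of thioredoxin. Like MMP1, INHBA was lowest in control cells at 48 h, with a mean of 5.30, against 7.20 at 24 h, and its means in Aa-treated cells were 7.40 at 24 h and 7.29 at 48 h. For PLAUR they were EIF6 (r = 0.969), SLN (r = 0.964) and NCAPG (r = 0.964), and the means of SLN were 7.89 in Aa-treated cells and 8.56 in control cells at 24 h, and 9.52 and 5.60 at 48 h. For PLAT they were TOMM5 (r = 0.960), STIP1 (r = 0.959) and NSDHL (r = 0.946), whose group means differed far less than those of PLAT.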
